A study of Mus musculus with 18 samples.

Results

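The genes described here are antiviral interferon-stimulated genes, a set of 36 listed mouse genes whose products bind, cut, modify or sense viral nucleic acid, hold back virus particles or regulate the response to interferon. A gene was read from the probe set annotated to it alone, or from the one with the highest mean where it had several. By that rule 31 of the 36 genes had a probe set, out of 12394 genes on the array, and these 31 are the members of all counts below. Isg15 was represented only by a probe set shared with another gene, and Herc6, Dtx3l, Ifi44 and Xaf1 by none annotated to them, so these 5 genes were not analysed here. All 31 passed the filter on dim genes, which asked for a level above the array's median on at least 2 arrays. Each of the 31 was above the median on 14 or more of the 18 arrays.

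The arrays measured RNA of dendritic cells, the antigen-presenting cells that start T cell responses, grown from mouse bone marrow with medium of B16 tumour cells that secrete GM-CSF. Per the labels, cultures were used when most cells carried CD11c, and mice were 6 to 8 weeks old. There were 3 conditions: wild type C57BL/6 cells, the same wild type cells in the presence of 2 mM of the calcium chelator EGTA, and cells of Cd14-/- C57BL/6 mice, which lack the LPS co-receptor CD14. Each condition was hybridised once without LPS and once after 2, 4, 6, 12 and 24 h of smooth LPS (lipopolysaccharide, the bacterial cell wall component), which gives 18 arrays, 15 of them with LPS. Wild type cells with and without EGTA received 1 µg/ml of LPS per the labels, which give no LPS concentration for CD14-deficient cells, so a difference in dose and the genotype cannot be told apart. For the EGTA array without LPS, EGTA is named in the title and not in the protocol. Unstimulated cells were harvested 24 h after plating. The labels give no such hours for the LPS arrays. A difference in hours since plating and LPS thus cannot be told apart in comparisons with unstimulated cells. No label says that arrays came from separate cultures or mice, so the p-values below do not measure spread between cultures or mice. They measure the spread left between arrays by each fit. With 1 array per condition and time, technical spread and condition differences that change with time cannot be told apart in it.

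LPS binds TLR4 with the help of CD14, and TLR4 that has entered endosomes signals through the adaptor TRIF to the kinases TBK1 and IKKε and the factor IRF3, which switches on the interferon-β gene Ifnb1. Secreted interferon then acts on the receptor IFNAR of the same and neighbouring cells, where the kinases JAK1 and TYK2 activate STAT2. A complex that holds STAT2 and IRF9 binds the interferon-stimulated response element in promoters of antiviral genes, and IRF7 and the inhibitors SOCS1 and USP18 are themselves among its targets. Per the series' design text, EGTA and CD14 loss were both used to pick out effects of calcium fluxes, leaving aside what CD14 loss does to TRIF and what EGTA does beyond chelating calcium.

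Promoter DNA is shown for 4 members with large LPS responses, 3 chosen because they hold the interferon response element and 1 that does not: Ifit1 and Ifit3, of the IFIT gene cluster on chromosome 19, and Rsad2 and Cmpk2, neighbours on chromosome 12. Each line holds the 250 bases before the annotated start of transcription, from RefSeq's promoter table (GRCm38.p6), with matches to the element's core GAAANNGAAA on either strand in capitals. The window of Ifit1 is chr19:34640639-34640888 on the plus strand, that of Ifit3 chr19:34583279-34583528 on the plus strand, that of Rsad2 chr12:26456453-26456702 on the minus strand and that of Cmpk2 chr12:26468965-26469214 on the plus strand.
Ifit1: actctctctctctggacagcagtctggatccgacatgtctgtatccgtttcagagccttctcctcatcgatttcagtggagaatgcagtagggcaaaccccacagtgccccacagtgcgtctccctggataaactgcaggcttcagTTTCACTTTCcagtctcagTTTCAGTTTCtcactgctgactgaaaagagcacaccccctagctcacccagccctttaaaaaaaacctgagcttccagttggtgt
Ifit3: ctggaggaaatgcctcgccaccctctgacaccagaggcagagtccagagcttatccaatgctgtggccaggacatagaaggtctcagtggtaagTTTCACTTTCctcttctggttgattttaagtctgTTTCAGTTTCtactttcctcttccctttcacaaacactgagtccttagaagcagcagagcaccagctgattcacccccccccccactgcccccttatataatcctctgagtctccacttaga
Rsad2: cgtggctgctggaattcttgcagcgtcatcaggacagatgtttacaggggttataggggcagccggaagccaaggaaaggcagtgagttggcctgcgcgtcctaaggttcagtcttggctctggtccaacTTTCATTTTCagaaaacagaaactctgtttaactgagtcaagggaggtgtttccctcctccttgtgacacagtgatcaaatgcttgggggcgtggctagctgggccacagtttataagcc
Cmpk2: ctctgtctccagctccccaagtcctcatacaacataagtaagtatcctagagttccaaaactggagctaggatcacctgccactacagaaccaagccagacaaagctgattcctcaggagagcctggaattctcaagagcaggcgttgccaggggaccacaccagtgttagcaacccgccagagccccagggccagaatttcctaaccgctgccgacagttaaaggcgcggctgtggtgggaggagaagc
The 2 matches of Ifit1 began 104 and 85 bases before the start, those of Ifit3 156 and 122 bases before it, and the 1 match of Rsad2 120 bases before it. The Cmpk2 window held none, nor did either of the 2 windows of Ifit2, which lies in the same cluster as Ifit1 and Ifit3 and is not printed. That says only that these letters are not in those windows. Over windows reaching from 250 bases before to 50 after the start, the core was found in 10 of the 22 members that the table holds (45.5%) and in 1079 of all 27025 genes of the table (3.99%). A gene with several start sites counted once if any of its windows held a match. The 10 members with the core were Ifit1, Ifit3, Rsad2, Ifih1, Eif2ak2, Trim21, Trim30a, Bst2, Lgals9 and Tdrd7, which include members with large and with small LPS responses. A match is a description of the sequence, and binding was not measured.

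Before the results, the arrays and labels were checked. Cd14 lay between 12.65 and 13.28 on the 6 wild type arrays, 12.49 and 13.02 on the 6 EGTA arrays and 4.28 and 5.83 on the 6 CD14-deficient arrays (log2 levels). It had a difference of -8.21 ± 0.24 (SE; adjusted p = 1.85e-10, limma) between CD14-deficient and wild type cells under LPS and was lower at 5 of 5 times. None of the 153 pairs of arrays held identical values. The unstimulated EGTA array stood apart among dim probe sets: the 1st percentile of its intensities was 3.63 against 0.645 to 0.939 on the other 17 arrays, and the EGTA arrays at 12 and 24 h had the lowest RNA integrity numbers (RIN), 8.8 and 8.7. Of the dendritic cell markers, Itgax, which encodes CD11c, was above the array's median on all 18 arrays, as were Cd74, H2-Ab1, Ciita and Dpp4, while Kmo was on 8 and Flt3 on 1. Macrophage markers were also above the median on all 18 arrays (7 of 7 genes). The T cell gene Cd3e and the B cell gene Cd79a were above it on 0 arrays, as were the plasmacytoid dendritic cell genes Ccr9, Cox6a2 and Ly6d, while Tcf4, of the same list, was above it on 18. In these bulk cultures fewer responding cells and less RNA per cell cannot be told apart.

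LPS raised nearly the whole set. Levels are quantile-normalised log2(value + 16), differences are on that log2 scale, which understates the change of dim genes, and ± is the standard error of the fit. Over the 5 times, 30 of 31 members were higher after LPS than without it, and 1, Trim25, was lower (limma, 18 arrays with the condition as a block, Benjamini-Hochberg adjusted p at most 0.05). Of the 7056 genes tested, 27.3% were higher and 34.7% lower. The median rise of the members was 2.33, against -0.05 over all tested genes. At 2 h the test passed for 25 members upward and 1, Trim25, downward (all genes: 16.4% and 25%). At 24 h it passed for 30 upward and 0 downward, also 0 downward at an unadjusted p under 0.05 (all genes: 26.5% and 25.8%). Unstimulated cells were also harvested at 24 h, counted from plating, but the labels do not say how long after plating LPS cells were harvested.

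The IFIT proteins, which bind viral RNA and block its translation, had the largest rises together with Cmpk2, a mitochondrial nucleotide kinase. Ifit1 was at 5.61 in wild type cells without LPS and at 12.55, 13.19, 13.16, 12.96 and 12.32 after 2, 4, 6, 12 and 24 h. With EGTA it was at 5.05 and then 12.46, 13.16, 12.97, 12.61 and 11.92, and in CD14-deficient cells at 5.32 and then 10.01, 12.68, 12.71, 12.32 and 11.37. All 15 LPS arrays thus lay above all 3 unstimulated arrays, and the CD14-deficient array at 2 h was the lowest of the 15. The mean rise was 7.10 ± 0.27 (adjusted p = 1.19e-11). Ifit2 was at 7.35 in wild type cells and then at 12.32, 13.43, 13.42, 13.25 and 12.68, at 7.79 with EGTA and then 12.40, 13.38, 13.37, 13.19 and 12.87, and at 6.23 in CD14-deficient cells and then 9.33, 12.74, 12.88, 12.35 and 11.46. Here too no LPS array overlapped the unstimulated ones, and the rise was 5.48 ± 0.28 (adjusted p = 3.12e-10). Cmpk2 was at 6.99 and then 12.50, 13.70, 13.74, 13.26 and 12.66 in wild type cells, 7.32 and then 12.41, 13.69, 13.64, 13.03 and 11.88 with EGTA, and 6.23 and then 10.00, 13.07, 13.02, 11.88 and 10.85 in CD14-deficient cells. Its groups did not overlap either, and it rose by 5.78 ± 0.23 (adjusted p = 1.5e-11). The remaining IFIT gene, Ifit3, rose by 5.47 ± 0.29 (adjusted p = 3.5e-10).

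Among the other effectors, Rsad2, which encodes viperin, the enzyme that makes a chain-terminating nucleotide, rose by 4.46 ± 0.23, and Isg20, an RNA exonuclease, by 4.41 ± 0.31. The Mx GTPases rose by 4.31 ± 0.20 (Mx2) and 3.01 ± 0.16 (Mx1); in C57BL/6 mice both genes are known to carry defective alleles, and the arrays report only their RNA. Usp18, which removes ISG15 from proteins and dampens the interferon receptor, rose by 4.09 ± 0.21. Of the sensors, Ifih1 (MDA5) rose by 3.77 ± 0.10, Dhx58 (LGP2) by 2.84 ± 0.15, Zbp1, which senses Z-form nucleic acid, by 2.59 ± 0.17 and Rnf135, a ubiquitin ligase that activates RIG-I, by 1.98 ± 0.11. The ADP-ribosyltransferase family members Parp14 and Parp9 rose by 3.59 and 2.18, the antibody receptor Trim21 by 2.71 and the tetherin gene Bst2 by 1.91. Rtp4 rose by 3.40, Tor3a by 2.33 and Trim30a by 2.22. Rises under 2 on the log2 scale were also those of the PKR gene Eif2ak2, the RNA editor Adar, the nuclear body genes Pml, Sp100 and Daxx, Nmi and Ifi35, Tdrd7 and both genes of the galectin system, Lgals9 (1.12) and Lgals3bp (0.68), the last being the smallest. The adjusted p of the 30 called rises ran up to 0.000101, that of Pml. Other probe sets of the same genes gave both smaller and larger rises, such as 0.52 and 3.21 for Dhx58, 4.27 for Zbp1 and 2.41 for Rtp4.

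Trim25, a ubiquitin ligase of the RIG-I pathway, was the exception. It was at 11.02 in wild type cells without LPS and at 10.84, 10.48, 10.33, 10.71 and 11.08 after LPS, at 10.86 and then 10.74, 10.74, 10.49, 10.55 and 10.72 with EGTA, and at 10.96 and then 9.75, 10.40, 9.77, 10.03 and 10.48 in CD14-deficient cells. The wild type array at 24 h was above the unstimulated ones, so the groups overlapped, and the mean difference was -0.47 ± 0.13 (adjusted p = 0.00602). Its 3 probe sets disagreed: the other 2 differed by -0.42 and 1.05 between LPS and unstimulated arrays. With the mean of the 3 probe sets the difference was 0.05 (adjusted p = 0.749), and it was also not called with median centring. Without the CD14-deficient unstimulated array it was -0.27 (adjusted p = 0.11), and without all CD14-deficient arrays the difference at 2 h was -0.15 (adjusted p = 0.433).

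**Figure D1:**
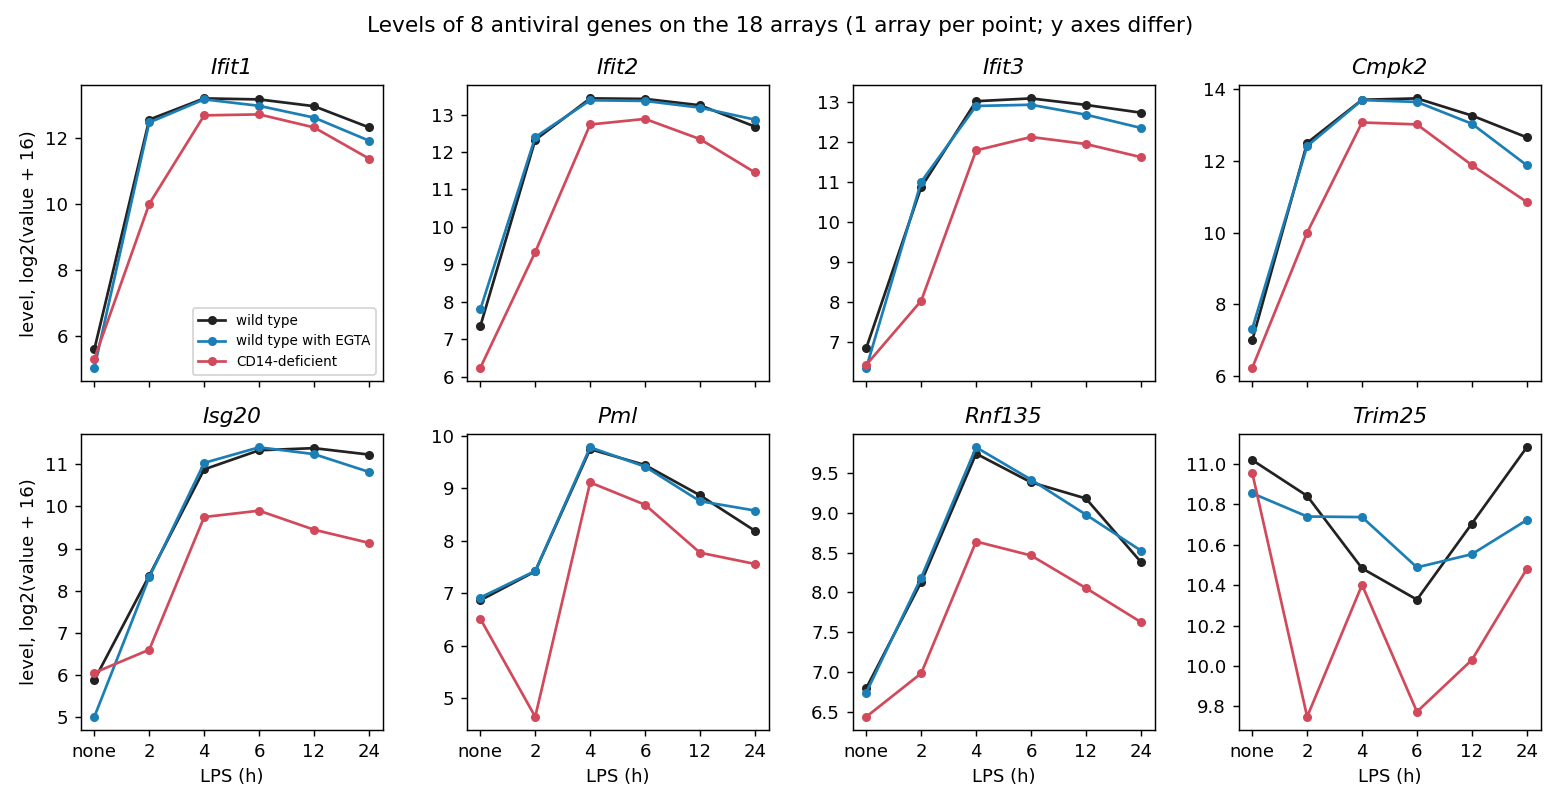
Level (quantile-normalised log2(value + 16), y axis) of 8 members against hours of LPS (x axis, evenly spaced points), 1 point per array and 1 line per condition. The CD14-deficient lines lie below the wild type lines at all 5 LPS times, with Ifit1 at 10.01 at 2 h against 12.55 in wild type cells.

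The members did not move in step. Between 2 and 4 h of LPS 30 of 31 members rose further and 0 fell, also 0 at an unadjusted p under 0.05 (limma over the 15 LPS arrays; 21.4% of 6929 tested genes rose and 21.8% fell). The largest of these later rises were those of Dhx58 (3.15 ± 0.20), Pml (3.05 ± 0.34) and Isg20 (2.79 ± 0.14), and the smallest called one was that of Mx2 (0.57 ± 0.21, adjusted p = 0.0406). Without the CD14-deficient arrays these values were 2.84 for Dhx58, 2.34 for Pml and 2.62 for Isg20, and that of Mx2 was 0.15 and not called (adjusted p = 0.281). It was not called without the wild type arrays either (adjusted p = 0.107). The 5 members that passed the test at 2 h in neither direction were Lgals9, Lgals3bp, Pml, Sp100 and Ifi35. These tests average the conditions, and the CD14-deficient array went the other way for Pml, Sp100, Ifi35 and Lgals9. Relative to the unstimulated array of the same condition, Pml was at 0.55 in wild type cells, 0.51 with EGTA and -1.87 in CD14-deficient cells. Sp100 was at 0.46, 0.51 and -0.44 and Ifi35 at 0.61, 0.63 and -0.22 in the same order, Lgals9 was at 0.10, 0.13 and -0.40, while Lgals3bp was at -0.05, -0.08 and -0.06. Others were by then above their level at 24 h: Ifih1 was at 3.78 at 2 h against 2.86 at 24 h, and Mx2 at 4.35 against 3.80.

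Among the 5 LPS times, the highest level in wild type cells fell at 4 h for 19 of 31 members, at 6 h for 8, at 12 h for 1 (Isg20) and at 24 h for 3 (Bst2, Lgals3bp and Trim25). With EGTA these numbers were 21, 5, 1 and 2, and 2 members, Mx2 and Trim25, were highest at 2 h. In CD14-deficient cells 15 members were highest at 4 h, 12 at 6 h, 1 (Zbp1) at 12 h and 3 at 24 h, the same 3 as in wild type cells. With 1 array per time these peak times are descriptions, and the shares of all tested genes highest at each time are not given here.

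From 6 to 24 h, 20 members fell, 3 rose and 8 did not pass the test (all genes: 19.8% fell and 25.1% rose). Cmpk2 fell by 1.67 ± 0.30 (adjusted p = 0.000624). Mx1 was at 8.71 without LPS and 12.11, 12.88, 12.83, 12.30 and 11.09 with it in wild type cells, 9.13 and 12.22, 12.90, 12.76, 12.19 and 11.12 with EGTA, and 8.71 and 10.56, 12.08, 11.67, 10.93 and 10.29 in CD14-deficient cells. In each condition its level at 24 h was below those at 4, 6 and 12 h, and from 6 to 24 h it fell by 1.59 ± 0.14 (adjusted p = 3.11e-06). Ifih1, Daxx, Parp14, Dhx58, Nmi and Ifi35 fell by between 1.18 and 1.40. The members that rose were Bst2 (0.72 ± 0.09, adjusted p = 4.97e-05), Lgals3bp (0.54 ± 0.09, adjusted p = 0.000533) and Trim25 (0.57 ± 0.15, adjusted p = 0.00869). Ifit3 (-0.48), Rsad2 (-0.37), Zbp1 (-0.20) and Adar (-0.24) were among those that did not pass.

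CD14-deficient cells had lower levels of the set than wild type cells under LPS. Of 31 members 28 were lower and 0 higher, also 0 higher at an unadjusted p under 0.05 (limma over the 15 LPS arrays with LPS time as a block, adjusted over 6929 genes, of which 12.6% were lower and 17.1% higher). The median member difference was -0.74, against 0.04 over all tested genes, and each of the 31 was lower at 5 of 5 times. The share of all tested genes lower at 5 of 5 times is not given here, so that count is a description. The 3 that did not pass the test were Rsad2 (-0.57 ± 0.20, adjusted p = 0.0513), Parp9 (-0.43 ± 0.16, adjusted p = 0.0598) and Trim30a (-0.48 ± 0.23, adjusted p = 0.137). Both other Rsad2 probe sets gave larger differences, -1.26 and -1.03, and with the mean of its probe sets Rsad2 passed (adjusted p = 0.00832). These tests rest on the pairing of arrays by LPS time: without that block 0 members passed, since the changes over time then count as error.

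The difference was largest for Isg20, the RNA exonuclease. It was at 5.88 without LPS and 8.36, 10.88, 11.33, 11.38 and 11.23 with it in wild type cells, at 5.01 and 8.32, 11.03, 11.40, 11.24 and 10.82 with EGTA, and at 6.05 and 6.60, 9.75, 9.90, 9.45 and 9.13 in CD14-deficient cells. From 4 h on the CD14-deficient arrays all lay below those of both other conditions, while without LPS the CD14-deficient array was the highest of the 3. Those 3 unstimulated levels are low on this scale, where probe sets are noisy. Isg20 was above the array's median on 14 arrays. The difference under LPS was -1.67 ± 0.11 (adjusted p = 4.87e-07), a 3.18-fold lower level. Ifit3 was at 6.84 and 10.87, 13.03, 13.10, 12.93 and 12.74 in wild type cells, 6.34 and 11.01, 12.91, 12.94, 12.69 and 12.36 with EGTA, and 6.42 and 8.02, 11.79, 12.13, 11.95 and 11.63 in CD14-deficient cells. Its CD14-deficient array was the lowest at each LPS time and the difference was -1.43 ± 0.26 (adjusted p = 0.00159). Cmpk2 followed with -1.41 ± 0.23 (adjusted p = 0.000753) and Ifit2 with -1.27 ± 0.30 (adjusted p = 0.00685), from the levels given above. For both, the difference narrowed from 2 h to 4 h and was again past 1 on the log2 scale at 24 h (-1.80 and -1.22).

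By role, all 3 IFIT genes were lower, with Ifit1 at -1.02 ± 0.26 (adjusted p = 0.0117), and both Mx genes, Mx2 at -1.24 ± 0.16 and Mx1 at -1.13 ± 0.11. Usp18 was at -0.94 ± 0.19. All 5 genes of RNA and DNA sensing were lower: Rnf135 (-1.01 ± 0.07), Dhx58 (-0.75 ± 0.15), Ifih1 (-0.74 ± 0.09), Trim25 (-0.60 ± 0.12) and Zbp1 (-0.52 ± 0.17). The nuclear body genes were lower too, Pml by 1.18, Daxx by 0.74 and Sp100 by 0.46, as were Trim21 (-0.92), Tor3a (-0.82), Rtp4 (-0.74), Adar (-0.61), Parp14 (-0.59), Bst2 (-0.56), Lgals3bp (-0.54), Nmi (-0.53), Lgals9 (-0.51) and Ifi35 (-0.45).

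The 2 h arrays weigh on several of these values. Without the CD14-deficient 2 h array Ifit1 was at -0.62, Ifit2 at -0.83, Pml at -0.79, Rtp4 at -0.35, Zbp1 at -0.29 and Eif2ak2 at -0.21, and all 6 still passed. Without all 2 h arrays all 31 members passed, with a median of -0.48.

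The smallest differences were those of Eif2ak2, Parp9 and Tdrd7. Eif2ak2, the kinase PKR that halts translation on double-stranded RNA, was at 8.15 and 9.39, 11.08, 10.52, 10.11 and 9.46 in wild type cells, 8.26 and 9.62, 11.00, 10.71, 9.99 and 9.63 with EGTA, and 7.91 and 8.33, 10.74, 10.38, 9.89 and 9.27 in CD14-deficient cells. It differed by -0.39 ± 0.13 (adjusted p = 0.0429). This call was lost in 14 of 20 fits that left out an array or a time, as was that of Rtp4, and that of Zbp1 in 6. Parp9 was at 8.74 and 10.50, 11.79, 11.48, 11.01 and 10.64 in wild type cells and 8.68 and 9.13, 11.58, 11.26, 10.85 and 10.46 in CD14-deficient cells, and was 8.88 and 10.54, 11.80, 11.43, 10.99 and 10.73 with EGTA. Tdrd7, a tudor domain protein, was at 8.14 and 9.05, 10.50, 10.37, 10.06 and 9.91 in wild type cells, 8.09 and 9.19, 10.68, 10.55, 10.10 and 9.60 with EGTA, and 7.97 and 8.18, 10.32, 10.09, 9.74 and 9.37 in CD14-deficient cells, a difference of -0.44 ± 0.10 (adjusted p = 0.00766). For these 3 genes the CD14-deficient array was lowest against wild type at 2 h (-1.06, -1.38 and -0.87) and closer to it from 4 h on.

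**Figure D2:**
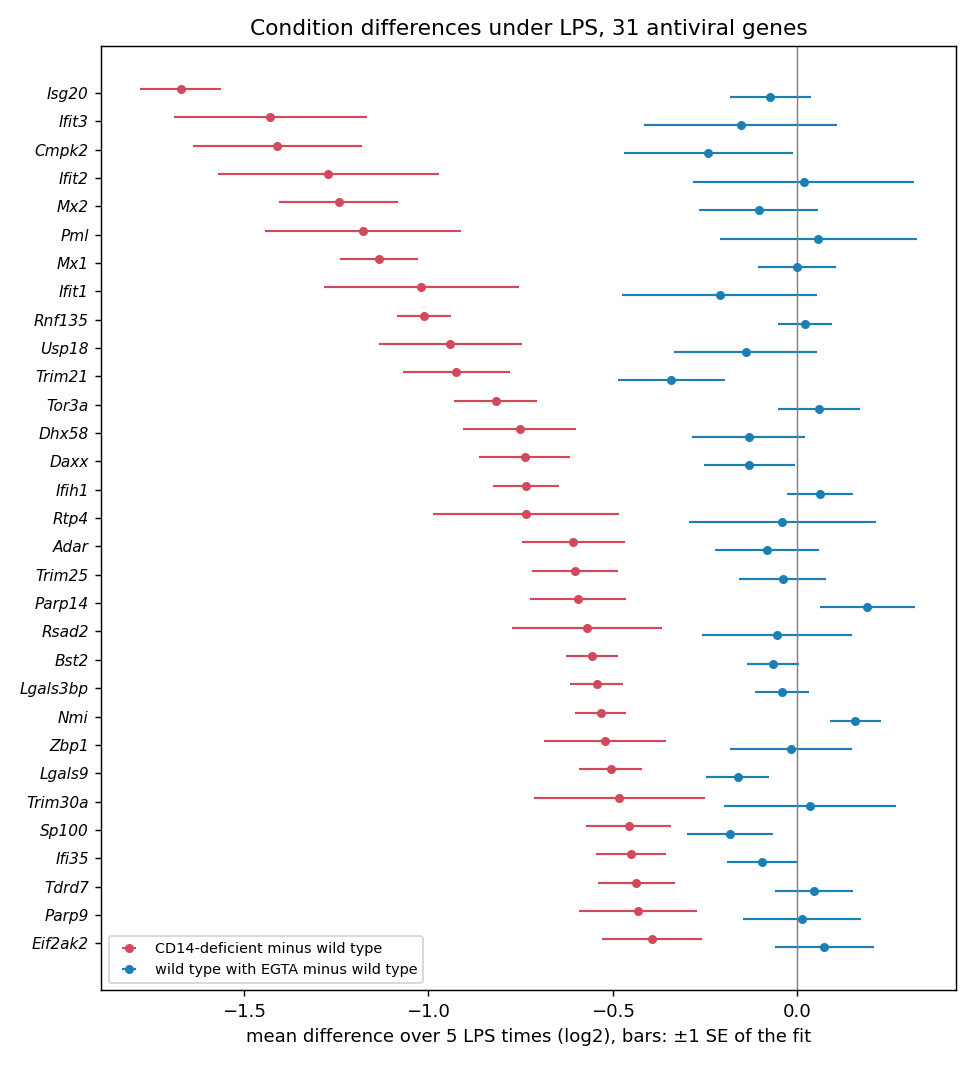
Mean difference in log2 level over the 5 LPS times (x axis) for each of the 31 members (y axis, ordered by the CD14 difference), red for CD14-deficient minus wild type and blue for EGTA minus wild type. Points are the fitted differences and bars 1 standard error to each side; all red points lie below 0, from -1.67 for Isg20 to -0.39 for Eif2ak2, while blue points lie on both sides of 0, from -0.34 for Trim21 to 0.19 for Parp14.

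Other measures differed between the same arrays, in the fit that called 12.6% of all genes lower and 17.1% higher. Of the macrophage markers 6 of 7 were lower in CD14-deficient than in wild type cells under LPS (Apoe by 1.65, C1qa by 1.07, C1qb by 0.78, C1qc by 1.36, Fcgr1 by 0.87 and Mertk by 0.38, while Csf1r was at -0.11 and did not pass), and the log2 of their summed intensities ran from 13.39 to 14.67 over the CD14-deficient arrays and from 13.94 to 14.80 over the wild type arrays. Granulocyte markers were higher for 3 of 5 (Camp by 1.53, Elane by 0.74 and Ngp by 0.55), with summed levels of 10.37 to 12.69 against 9.38 to 12.61. Dendritic cell markers were higher for 5 of 6 tested, by 0.16 (Cd74) to 0.55 (Kmo), with summed levels of 14.51 to 14.83 against 14.18 to 14.66. Of the plasmacytoid markers only Tcf4 was tested, and it was lower by 0.43. RIN values were 9.3 to 9.7 on the CD14-deficient arrays and 9.7 to 10 on the wild type arrays. The part of these in the differences of the members was not tested.

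EGTA left no member past the test. Of 31 members 0 were higher and 0 lower than in wild type cells (limma, same fit, all genes: 7.39% higher and 6.22% lower). At an unadjusted p under 0.05 there were 1 higher, Nmi, and 1 lower, Trim21. Of all 6929 tested genes, 1052 were higher and 894 lower at that p. The median member difference was -0.04, against 0.01 over all tested genes. Trim21 was at -0.34 ± 0.15 (adjusted p = 0.143) and lower at 5 of 5 times, and Nmi, an interferon-induced protein that pairs with IFI35, at 0.16 ± 0.07 (adjusted p = 0.155) and higher at 5 of 5. A test that misses the threshold does not show equal levels. The 95% intervals of this fit were -0.31 to 0.16 for Isg20, -0.23 to 0.23 for Mx1, -0.78 to 0.36 for Ifit1 and -0.63 to 0.67 for Ifit2. All conditions share the error of the fit, so a CD14 difference that changes with time widens these intervals too. For Ifit2 the EGTA differences were 0.07, -0.05, -0.05, -0.06 and 0.19 at 2, 4, 6, 12 and 24 h. Leaving out all arrays at 2 h gave 3 calls, all lower (Trim21, Ifit3 and Lgals9). Without the CD14-deficient 2 h array alone there were 2 calls, Trim21 lower and Parp14 higher, and without the EGTA 2 h array 1, Trim21. Without the EGTA arrays at 12 and 24 h, those of low RIN, 0 passed. With EGTA 3 of 7 macrophage markers (Apoe, Csf1r and Mertk), 1 of 6 dendritic cell markers (Ciita) and 0 of 5 granulocyte markers were higher than in wild type cells, and their part was not tested.

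The CD14 and EGTA differences share the wild type arrays, so they are not independent of each other, and the direct comparison of CD14-deficient with EGTA arrays is the test of whether they differ. In it 26 of 31 members were lower in CD14-deficient cells and 0 higher, also 0 higher at an unadjusted p under 0.05 (all genes: 14.4% lower and 16.8% higher), with a median of -0.62. The members that did not pass were Rtp4 (-0.69 ± 0.25), Trim30a (-0.52 ± 0.23), Rsad2 (-0.51 ± 0.20), Parp9 (-0.44 ± 0.16) and Sp100 (-0.27 ± 0.12). Isg20 was again the largest at -1.60 ± 0.11 (adjusted p = 5.34e-07). As in the comparison with wild type, 0 passed without the block for LPS time.

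The gap between CD14-deficient and wild type cells was widest at 2 h. The median member difference was -1.46 at 2 h and then -0.54, -0.47, -0.64 and -0.57 at 4, 6, 12 and 24 h, while the median over the 7056 tested genes stayed between 0.02 and 0.05. At 2 h 24 of 31 members were at least 2-fold lower, on 1 array against 1 (2.49% of all genes), and all 31 were below wild type at each of the 5 times. Without LPS 28 of 31 were below wild type, with a median of -0.34 against -0.01 over all tested genes. The shares of all tested genes below wild type, with or without LPS, are not given here. Of the members, 4 were at least 2-fold lower without LPS (1.01% of all genes): Usp18 (-1.64), Rsad2 (-1.59), Rtp4 (-1.46) and Ifit2 (-1.11). With EGTA the medians were -0.04 without LPS and 0.00, 0.00, -0.06, -0.12 and -0.03 at the LPS times, and no member was 2-fold from wild type at any time.

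A test of the 2 h difference against that of the 4 later times passed for 14 members, all lower at 2 h, and for 0 in the other direction. It was limma with a condition by 2 h term (all genes past the adjusted threshold: 0.765% lower and 0.188% higher). At an unadjusted p under 0.05 there were 29 of 31 members lower and 0 higher. Of all 6929 tested genes, 378 were lower and 292 higher at that p. Most of the other 17 members thus lay past that p but not past the adjusted one. The test rests on 1 array per condition at 2 h, which is assumed to vary like the later ones. Ifit2 had the largest extra difference. Its CD14 differences were -3.00, -0.70, -0.53, -0.90 and -1.22 at 2, 4, 6, 12 and 24 h, and the 2 h value lay -2.16 ± 0.26 (adjusted p = 0.00158) from the mean of the others. Pml, the organiser of the nuclear bodies named after it, was at 6.87 without LPS and 7.42, 9.74, 9.44, 8.87 and 8.19 with it in wild type cells, 6.92 and 7.43, 9.78, 9.41, 8.75 and 8.58 with EGTA, and 6.52 and 4.65, 9.11, 8.69, 7.77 and 7.56 in CD14-deficient cells. Its CD14-deficient 2 h array was far below all other 17, with a deposited intensity of 8.67 that is below the added 16, so its size depends on that constant, and the interaction was -1.99 ± 0.22 (adjusted p = 0.000835); with 64 added in place of 16 it was -0.90 and not called (adjusted p = 0.0547). Ifit1 had CD14 differences of -2.54, -0.51, -0.45, -0.64 and -0.94 and an interaction of -1.91 ± 0.17 (adjusted p = 0.000187). The remaining 11 were Rtp4 (-1.91), Ifit3 (-1.77), Trim30a (-1.60), Rsad2 (-1.41), Usp18 (-1.35), Parp9 (-1.18), Zbp1 (-1.18), Dhx58 (-1.16), Trim21 (-0.91), Parp14 (-0.91) and Eif2ak2 (-0.83). Of these, the call of Dhx58 was lost without scaling, with 64 added and with the mean of its probe sets, that of Eif2ak2 without scaling and without the intensity trend, that of Trim21 without scaling and that of Parp14 without the trend. Eif2ak2 also lost it in 4 of 13 fits that left out an array. Cmpk2, at -1.37 ± 0.35 (adjusted p = 0.131), did not pass.

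The smallest interactions were those of Isg20, Rnf135 and Nmi. Isg20 had CD14 differences of -1.76, -1.13, -1.43, -1.94 and -2.10 and an interaction of -0.11 ± 0.29 (adjusted p = 0.949). Rnf135 was at 6.80 and 8.13, 9.74, 9.38, 9.18 and 8.38 in wild type cells, 6.74 and 8.19, 9.82, 9.42, 8.98 and 8.53 with EGTA, and 6.44 and 6.98, 8.64, 8.46, 8.05 and 7.63 in CD14-deficient cells. Its difference was about as large at each time (-1.15, -1.10, -0.92, -1.13 and -0.76) and the interaction was -0.17 ± 0.18 (adjusted p = 0.846). Nmi was at 8.62 and 9.27, 11.37, 11.39, 10.75 and 10.07 in wild type cells, 8.55 and 9.39, 11.54, 11.45, 10.88 and 10.38 with EGTA, and 8.57 and 8.44, 10.82, 10.91, 10.27 and 9.75 in CD14-deficient cells, with CD14 differences of -0.83, -0.55, -0.48, -0.49 and -0.32 and an interaction of -0.38 ± 0.14 (adjusted p = 0.372) that was past an unadjusted p of 0.05. For Nmi the CD14-deficient array was the lowest of the 3 at each LPS time.

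With 2, 4 and 6 h pooled against 12 and 24 h, 0 members had another CD14 difference early than late. For EGTA 0 of 31 members had another difference at 2 h than later. Of all 6929 genes 0 passed (0% higher and 0% lower). At an unadjusted p under 0.05 there were 2 members, both higher at 2 h. Of all 6929 genes, 195 were higher and 188 lower at that p.

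**Figure D3:**
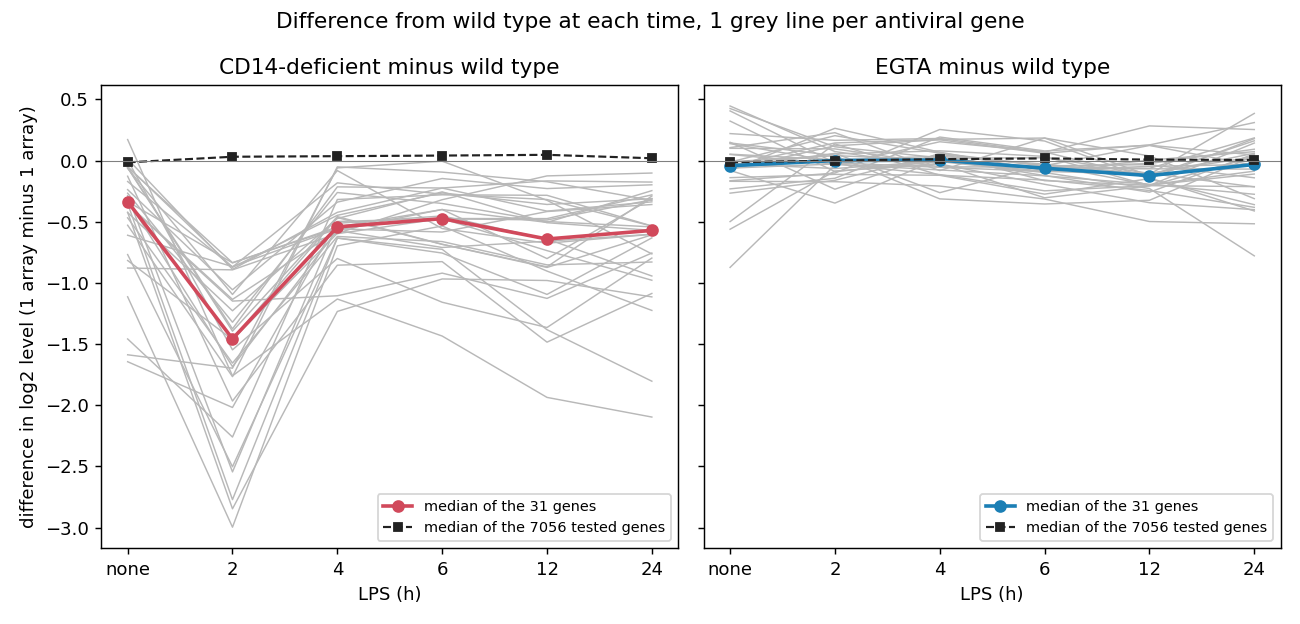
Difference in log2 level from wild type (y axis) without LPS and at each LPS time (x axis), 1 array minus 1 array, for CD14-deficient cells (left) and EGTA (right). Grey lines are the 31 members, coloured lines their median and dashed black lines the median of the 7056 tested genes; the CD14 median drops to -1.46 at 2 h and lies between -0.47 and -0.64 later, and the EGTA median stays between -0.12 and 0.00.

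Set against their own unstimulated array, 22 of 31 members were at least 2-fold higher at 2 h in wild type cells (6.05% of all tested genes), 22 with EGTA (7.95%) and 12 in CD14-deficient cells (4.88%). The median rise at 2 h was 1.72, 1.64 and 0.55. At 4 h the numbers were 29 (9.89%), 29 (11.7%) and 29 (8.89%) and the medians 3.00, 3.08 and 2.92 in the same order. These values rest on 1 array each and were not tested. Single members went both ways between CD14-deficient and wild type cells at 4 h. Isg20 had risen by 3.70 against 5.00 and Ifit3 by 5.37 against 6.18, but Rsad2 by 5.73 against 4.20 and Usp18 by 5.39 against 4.25. The level of Rsad2 differed from wild type by -1.59 without LPS and by -0.06 at 4 h, that of Usp18 by -1.64 and -0.50. Their larger rises thus start from a lower unstimulated array and do not reach a higher level. At 2 h Ifit3 had risen by 4.03 in wild type and 1.60 in CD14-deficient cells, Isg20 by 2.48 and 0.55, and Rsad2, which started lower in CD14-deficient cells, by 4.01 and 3.90.

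Over all 5 times the rise itself, LPS minus unstimulated, was tested between conditions with 1 unstimulated array each. Only Isg20 passed in CD14-deficient cells, where it rose less than in wild type cells by 1.84 ± 0.27 (adjusted p = 0.0193; all genes: 0.113% lower and 0.0425% higher). Without the wild type 12 h array it missed the threshold, and without the CD14-deficient 2 h array 5 members passed: Isg20 and Mx1 lower, Rtp4, Usp18 and Rsad2 higher. The 95% intervals of this contrast were wide: for Ifit1 -2.13 to 0.67 and for Ifit2 -1.74 to 1.42. For Isg20 the contrast starts from dim unstimulated levels, where probe sets are noisy. For EGTA 0 of 31 members passed (all genes: 0.879% higher and 0.779% lower). At an unadjusted p under 0.05 there were 0 members lower and 1 higher. Of all 7056 tested genes, 456 were lower and 600 higher at that p.

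**Figure D4:**
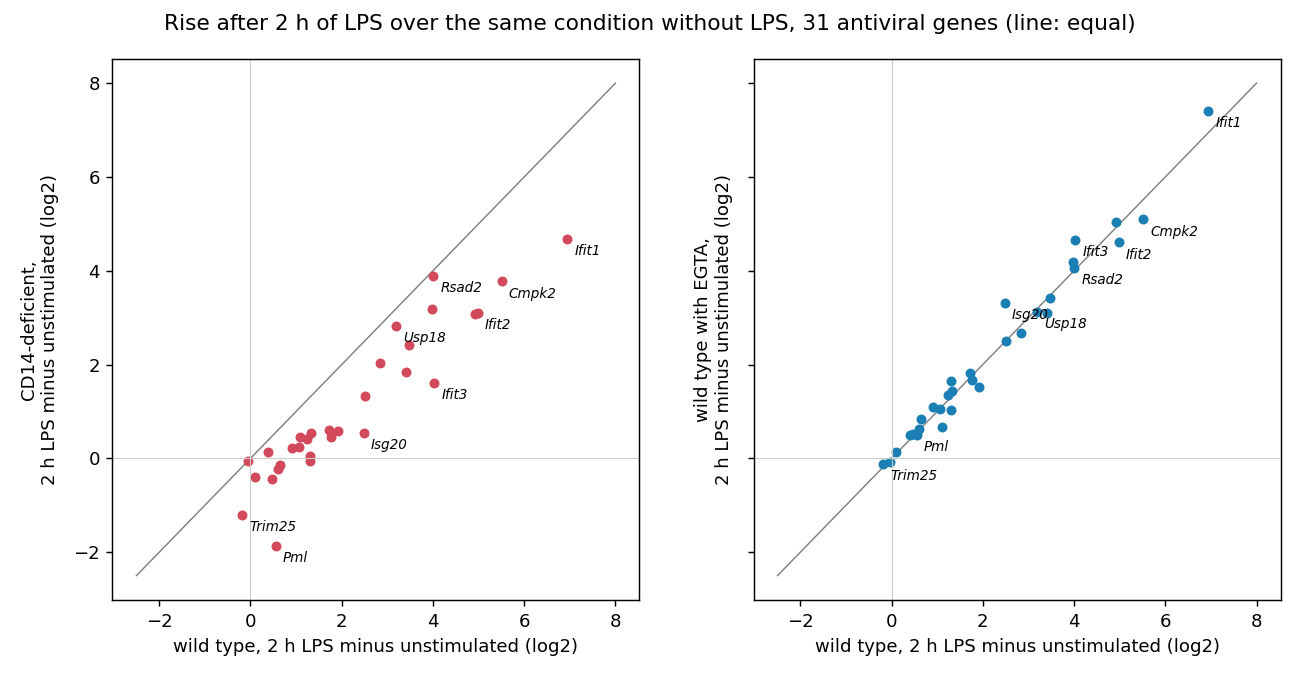
Rise in log2 level from the unstimulated array to the 2 h LPS array in wild type cells (x axis) against the same rise in CD14-deficient cells (left, y axis) and with EGTA (right, y axis), 1 point per member, 9 of them named. The line marks equal rises; with CD14 missing the points lie below it (Ifit3 at 4.03 and 1.60), with EGTA they lie along it.

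The genes upstream of the set were read from a list of 18 members of the interferon pathway, of which the 14 with a probe set of their own were measured. Averaged over the LPS times 12 of 14 were higher than without LPS and 1, Tlr4, was lower (all genes: 27.3% and 34.7%). In CD14-deficient cells 9 of 14 were lower than in wild type cells under LPS and 0 higher, also 0 higher at an unadjusted p under 0.05 (all genes: 12.6% and 17.1%). With EGTA 2 were lower, Ifnar1 and Ifnar2, and 2 higher, Tyk2 and Ikbke (all genes: 6.22% and 7.39%). Ifnb1, the interferon-β gene, was at 5.44 and 10.34, 8.25, 6.97, 6.18 and 5.41 in wild type cells, 5.98 and 9.91, 7.33, 6.04, 6.01 and 5.71 with EGTA, and 5.55 and 8.15, 6.19, 5.58, 5.41 and 5.38 in CD14-deficient cells. It was above the array's median on 5 arrays, highest at 2 h in all 3 conditions and lowest in CD14-deficient cells at 5 of 5 times. The CD14 differences of Ifnb1 were -2.19, -2.06, -1.39, -0.77 and -0.03 at 2, 4, 6, 12 and 24 h. At 24 h Ifnb1 was below its unstimulated level in each condition, so that time adds little to the count. Its CD14 difference under LPS was -1.29 ± 0.26 (adjusted p = 0.00276), and with EGTA -0.43 ± 0.26 (adjusted p = 0.31), which did not pass though Ifnb1 was lower at 4 of 5 times.

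Irf7, the factor that sustains interferon production, was at 7.66 and 9.84, 11.81, 12.00, 12.29 and 12.34 in wild type cells, 7.79 and 9.36, 11.68, 11.98, 12.13 and 12.03 with EGTA, and 6.73 and 7.44, 10.91, 11.25, 11.29 and 11.39 in CD14-deficient cells. Its CD14-deficient array was the lowest of the 3 at each time, the difference under LPS was -1.20 ± 0.18 (adjusted p = 0.00049), and Irf7 was the only one of the 14 with a called interaction at 2 h, -1.50 ± 0.14 (adjusted p = 0.000207). Stat2, a subunit of the complex that binds the response element, was at 7.88 and 9.77, 10.70, 10.69, 10.81 and 10.34 in wild type cells, 7.76 and 9.80, 10.71, 10.64, 10.59 and 10.24 with EGTA, and 7.75 and 8.45, 10.16, 10.20, 9.91 and 9.57 in CD14-deficient cells. It differed by -0.81 ± 0.11 (adjusted p = 0.000238) between CD14-deficient and wild type cells. Irf9, its DNA-binding partner, was at 8.64 and 9.96, 10.27, 10.12, 10.13 and 10.13 in wild type cells, 8.48 and 10.06, 10.35, 10.13, 10.25 and 10.16 with EGTA, and 8.13 and 9.02, 10.05, 10.09, 9.89 and 9.72 in CD14-deficient cells, and differed by -0.37 ± 0.11 (adjusted p = 0.0275). Stat2 and Irf9 were lower in CD14-deficient than in wild type cells at 5 of 5 LPS times. Socs1, the feedback inhibitor of JAK1 and TYK2, was at 7.78 and 8.58, 9.48, 9.44, 9.35 and 9.44 in wild type cells, 7.18 and 8.66, 9.47, 9.14, 9.30 and 9.79 with EGTA, and 7.22 and 7.65, 8.58, 8.66, 8.74 and 9.03 in CD14-deficient cells. It differed by -0.73 ± 0.09 (adjusted p = 0.00014) and was lower at 5 of 5 times. With EGTA Irf7, Stat2, Irf9 and Socs1 were at -0.22, -0.07, 0.07 and 0.01, and none passed. The kinase genes Tbk1 and Jak1 and the receptor gene Ifnar2 were among the 9 lower in CD14-deficient cells, by 0.19, 0.15 and 0.44, with Ikbke lower by 0.33, while Tlr4 (0.14), Irf3 (0.14), Ifnar1 (-0.05), Tyk2 (0.04) and Ptpn6 (0.14) did not pass.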

How the data were processed

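RNA was measured on 18 Affymetrix arrays, 1 per condition and time. The authors deposited linear MAS5 intensities, per the submitters' processing notes; the version of the software was not given in the sources used here. MAS5 subtracts mismatch signal, so dim probe sets are noisy. Of 22690 probe sets 20393 were annotated to 1 gene, 691 to several and 1606 to none; of the first, 20364 matched the RefSeq table (GRCm38.p6). From the deposited intensities, log2(value + 16) was quantile-normalised and the probe set with the highest mean was kept per gene. limma 3.58.1 in R 4.3.3 (lmFit, eBayes with an intensity trend) was fitted on all genes above the array's median on at least 2 fitted arrays, with Benjamini-Hochberg adjustment and a threshold of 0.05. Conditions were compared over the 15 LPS arrays with LPS time as a block (8 residual degrees of freedom), so the times served as replicates, and LPS over 18 arrays with condition as a block (10). The 2 h interaction had 6 and the induction interaction 8. The number of arrays limits the precision. The fits were tested on simulated data.

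The members and gene lists were chosen with earlier results of these data known. Values on every array are given for the members with the 3 largest LPS rises, the 4 largest and 3 smallest CD14 differences, the 3 largest and 3 smallest 2 h interactions and the 2 largest falls from 6 to 24 h, for members not raised by LPS, and for Ifnb1, Irf7, Stat2, Irf9 and Socs1; other members are given by their differences. Alternatives were median centring, no scaling, other added constants (1 and 64), other filters, the mean of a gene's probe sets, no intensity trend, no time block, no EGTA arrays at 12 and 24 h, and leaving out arrays.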

Additional observations from a re-analysis of the deposited data

Results flagged for a closer look

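In CD14-deficient cells the difference from wild type at 2 h stood far from those at the 4 later times for 11 members: Ifit1 (-2.54), Ifit2 (-3.00), Ifit3 (-2.85), Ifih1 (-1.13), Eif2ak2 (-1.06), Trim21 (-1.66), Trim30a (-1.77), Parp14 (-1.32), Parp9 (-1.38), Pml (-2.77) and Rtp4 (-2.26), all on the log2 scale. The gap to the nearest other time, over the whole range of the 5 times, was above Dixon's 95% critical value. The median over the 31 members stood apart in the same way (-1.46). Chance alone places about 1 in 20 such groups past that value, and these members share the same arrays. The share of all tested genes past it is not given here, so the 11 cannot be set against that share. With EGTA, the 24 h difference of Cmpk2 (-0.78) stood apart from those at the other times; that array had a RIN of 8.7, and the part of RNA integrity in it was not tested.

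By the test of the difference itself, 14 members had another CD14 difference at 2 h than later, all lower (all genes: 0.765% lower and 0.188% higher). In the test of the rise over LPS 1 member, Isg20, rose less in CD14-deficient than in wild type cells (all genes: 0.113% lower and 0.0425% higher).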

How the results depend on the processing

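Without the block for LPS time, 0 members passed in CD14-deficient minus wild type and 0 in CD14-deficient minus EGTA cells, since the change over time then counts as error. With 2, 4 and 6 h against 12 and 24 h, 0 members had another CD14 difference early than late. The CD14 induction test gave 2 members without scaling and 0 with the stricter filter, which tested fewer members. With 1 added in place of 16, the EGTA induction test gave 1 member, and 1 was at least 2-fold lower with EGTA without LPS. The difference of Trim25 after LPS reversed to 0.054 with the mean of its probe sets. Without scaling the median over all tested genes moved to -0.32 for LPS, -0.07 for CD14-deficient minus wild type and -0.17 for CD14-deficient minus EGTA, beside member medians of 2.06, -0.89 and -0.84. For the other alternatives each count stayed within 1.5 times its value. Of 409 values of single members under alternatives, 361 kept their side of the threshold and direction, 40 lost the call, 7 gained it and 1 reversed.

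Leaving out arrays, times or conditions in turn, the number of members called was 25 to 31 for CD14-deficient minus wild type, 0 to 3 for EGTA minus wild type, 23 to 28 for CD14-deficient minus EGTA, 30 to 30 for the mean LPS rise, 19 to 28 at 2 h, 29 to 30 at 24 h, 28 to 29 from 2 to 4 h, 17 to 27 from 6 to 24 h, 13 to 15 for the CD14 interaction at 2 h, 0 to 0 for that of EGTA, 0 to 5 for the CD14 induction and 0 to 0 for the EGTA induction. The 2 h interaction could not be fitted without the wild type array at 2 h or the 2 h array of the condition tested, nor the induction interaction without the matching unstimulated arrays. Signal over background limits the dimmest values, such as Pml at 2 h in CD14-deficient cells.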
